A study of Mus musculus with 24 samples.

Results

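The genes described here encode the vacuolar ATPase (V-ATPase), the proton pump of endosomes and lysosomes, and the cathepsins, the proteases that work in the acid it makes. A gene was included when the accession of its array probe mapped to a symbol starting with Atp6v or Atp6ap, or to a cathepsin symbol (Cts and 1 letter, or Ctsll3), with the neutrophil granule protease Ctsg left out. Of 20284 named genes on the array 43 met this rule, 25 of the V-ATPase and 18 cathepsins, with 48 of 55681 probes. The rule used names and no measured value. The gene table holds 46 genes that fit these names.

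The V-ATPase has a soluble V1 part, whose catalytic head hydrolyses ATP and turns a central shaft held in place by outer stalks, and a membrane V0 part, whose proteolipid ring carries protons across the membrane. Most cathepsins are made as inactive precursors, become active in that acid, and are classed by their active site as cysteine, aspartic or serine proteases. In dendritic cells these proteases degrade proteins taken up, trim the invariant chain of MHC class II molecules and cut the ectodomain of Toll-like receptor 9, the sensor of CpG DNA.

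Gene expression was measured in mouse dendritic cells, made from bone marrow in 9 days of culture with human Flt3 ligand at 100 ng/ml. Such cultures hold plasmacytoid as well as conventional dendritic cells. The mice were C57BL/6 and were WT, Irf5-KO (without IRF5, a transcription factor that acts downstream of Toll-like receptors), Lyn-KO (without the Src-family kinase LYN) or Lyn/Irf5-DKO, called DKO here. For every genotype some cells were unstimulated, and others had CpG-B ODN (1668), a DNA ligand of Toll-like receptor 9, for 6 h at 150 nM. Each of the 8 groups has 3 arrays. The design text calls the 3 biological replicates without naming cultures or animals, so the spread behind each p-value is that between these samples and may be technical. The strain and the Flt3 ligand are common to all groups. The sources used here do not give the deleted part of Irf5 or Lyn or the number of animals.

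The level given throughout is the log2 of the processed signal minus the 75th percentile of that array, so a level of 0 is the signal at that percentile and a difference of 1 is a 2-fold difference. Levels of different probes are not compared. Values of a group are listed in the order of array numbers 1, 2 and 3, where a number stands for a slide with 1 array of every group. A difference is given ± its standard error from limma, and counted as called where the p adjusted over all 20209 features tested (Benjamini-Hochberg) was under 0.05. On each array 41.0% to 53.8% of spots were well above background, and 0 were saturated. Lyn differed from WT by -1.82 ± 0.09 (adjusted p = 8.43e-10) in unstimulated Lyn-KO cells and by -1.83 ± 0.09 (adjusted p = 8.53e-10) in unstimulated DKO cells. The Irf5 probe differed from WT by -0.30 ± 0.09 (adjusted p = 0.161) in unstimulated Irf5-KO cells and by 0.64 ± 0.09 (adjusted p = 2.8e-05) with CpG-B, and in DKO by 1.09 ± 0.09 (adjusted p = 1.23e-08) with CpG-B. Its place relative to the deleted part is not given, so it checks no label. Of the markers of the labelled cells, all 10 of plasmacytoid dendritic cells exceeded background clearly on the 3 arrays of every group, and so did at least 5 of the 7 measured of type 1 and at least 5 of 7 of type 2 conventional dendritic cells.

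Of the 43 genes, 26 were well above background on all 24 arrays, 11 on some and 6 on none. The 32 genes tested, 19 of the V-ATPase and 13 cathepsins, had a probe that was well above background throughout at least 1 group, on its 3 arrays. They were 2 of 3 genes of the V1 head, 8 of 10 of the V1 stalks, 7 of 9 of V0, 2 of 3 accessory genes, 9 of 10 cysteine cathepsins, 2 of 2 aspartic cathepsins, the serine cathepsin Ctsa and 1 of 5 cysteine cathepsins of the placenta. The other 11 were Atp6v0a4, Atp6v1b1, Atp6v1c2 and Atp6v1g3, isoforms best known from the kidney and other epithelia, Atp6v0e2, Atp6ap1l, the placental Ctsj, Ctsq, Ctsr and Ctsll3, and the cysteine cathepsin Ctsf, which was well above background on 9 arrays.

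Sequences at the start sites are shown for the motifs of the factors that bear on the comparisons, the E-box bound by the MiT/TFE factors at lysosomal genes and the element bound by interferon regulatory factors, to which IRF5 belongs. RefSeq windows of 250 bases before to 50 bases after the start (GRCm38.p6) were found for 32 of the 43 genes, 36 windows in all. The letters TCACGTGA, which read the same on both strands and contain the shorter E-box CACGTG, stood in 5 windows (13.9%), against 0.974% of all 32851 windows of this length. CACGTG stood in 9 windows (25.0%, against 7.15% of all), and TCACGTGA with G before and C after it in 0 (against 0.326% of all). The letters GAAA, any 2 bases and GAAA again, searched on both strands, stood in 3 windows (8.33%, against 3.44% of all). Each sequence is written 5′ to 3′ on the strand of the gene, with the matched letters in capitals and 10 bases on either side.
Atp6v0d1, chr8:105566051-105566078, minus strand: cctactgcggTCACGTGAgacgcggtgc
Atp6v0e, chr17:26676388-26676415, plus strand: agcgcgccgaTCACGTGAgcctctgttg
Atp6v1a, chr16:44139374-44139401, minus strand: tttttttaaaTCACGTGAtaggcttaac
Ctsa, chr2:164833750-164833777, plus strand: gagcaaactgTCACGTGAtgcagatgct
Ctsa, chr2:164833767-164833794, plus strand: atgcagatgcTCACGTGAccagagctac
Ctsd, chr7:142387909-142387936, minus strand: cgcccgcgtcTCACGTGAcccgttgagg
Atp6v1d, chr12:78861850-78861879, minus strand: gagaggtaagTTTCTGTTTCttgctccagg
Ctso, chr3:81932606-81932635, plus strand: gcggagccaaGAAACCGAAAgagaaagcgg
Ctss, chr3:95526755-95526784, plus strand: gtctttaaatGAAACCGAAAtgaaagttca
The first 6 hold TCACGTGA, 2 of them in the window of Ctsa, and the last 3 hold GAAA, any 2 bases and GAAA, or the reverse complement. The window of Ctso holds a further match that overlaps the one shown. A match is a description of these letters, not a site or a cause. Among the genes with TCACGTGA, Atp6v1a rose with CpG-B in each genotype while Ctsa and Ctsd fell in each.

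With CpG-B, 6 of the 10 tested genes of the V1 part of the pump rose and the aspartic and serine cathepsins fell, in each of the 4 genotypes. Over all features, 22.7% were called higher and 27.1% lower in all 4. Under another background correction and scaling the rise of Atp6v1a, among the 6, was not called in Irf5-KO or Lyn-KO, as given below. Atp6v1d, of the V1 shaft, rose 2.81-fold in WT cells, and the proteases Ctsd and Ctsa fell 2.12- and 2.68-fold. Ctse fell to a signal not well above background, at least 6.46-fold by a rough floor. CpG-B changed most of what was measured: 68.5% of all features were called in WT, 66.8% in Irf5-KO, 68.9% for Lyn-KO and 70.5% for DKO. Of the 32 genes, 9 higher (31.2% of all features) and 9 lower (37.2%) were called in WT. Irf5-KO had 14 higher (31.6% of all features) and 6 lower (35.2%). Lyn-KO had 9 higher (32.8% of all features) and 9 lower (36.1%), and DKO had 14 higher (34.6% of all features) and 7 lower (35.9%). The shares of the 32 genes called (56.2%, 62.5%, 56.2% and 65.6%) were below the background shares in every genotype. Leaving out each array in turn, 15, 18, 17 and 18 of the calls held every time.

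The counts by family were as follows, with no test between the families. Of 19 V-ATPase genes, 9 and 4 were higher and lower in WT, 9 and 1 in Irf5-KO, 8 and 2 in Lyn-KO and 9 and 1 in DKO. Of 13 cathepsins, 0 and 5 were higher and lower in WT, 5 and 5 in Irf5-KO, 1 and 7 in Lyn-KO and 5 and 6 in DKO. The median log2 difference of the V-ATPase genes was 0.25, 0.15, 0.22 and 0.30 in this order and that of the cathepsins -0.03, -0.06, -0.31 and -0.01, against -0.03, -0.02, -0.01, 0.02 over all features. The V-ATPase direction depended on the scaling: higher and lower counts were 7 and 6, 8 and 3, 7 and 7 and then 8 and 4 under quantile normalisation, and 7 and 5, 6 and 4, 6 and 6 and then 8 and 5 under normexp background correction with quantile normalisation, called normexp from here. In Lyn-KO neither scaling left an excess of higher V-ATPase genes. Without the filter on dim probes 2 V-ATPase genes in place of 4 were lower in WT and 1 in place of 2 in Lyn-KO, and 3 cathepsins in place of 5 were higher in DKO. The 8 genes higher in all 4 genotypes were Atp6v1a, Atp6v1b2, Atp6v1c1, Atp6v1d, Atp6v1e1, Atp6v1h, Atp6v0a1 and Atp6v0c, where 22.7% of all features were higher in all 4. The 5 genes lower in all 4 were Ctsa, Ctsd, Ctse, Ctsh and Ctsl, where 27.1% of all features were. Ctsc was called in both directions, 13 genes in some genotypes and 5 in none.

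**Figure D1:**
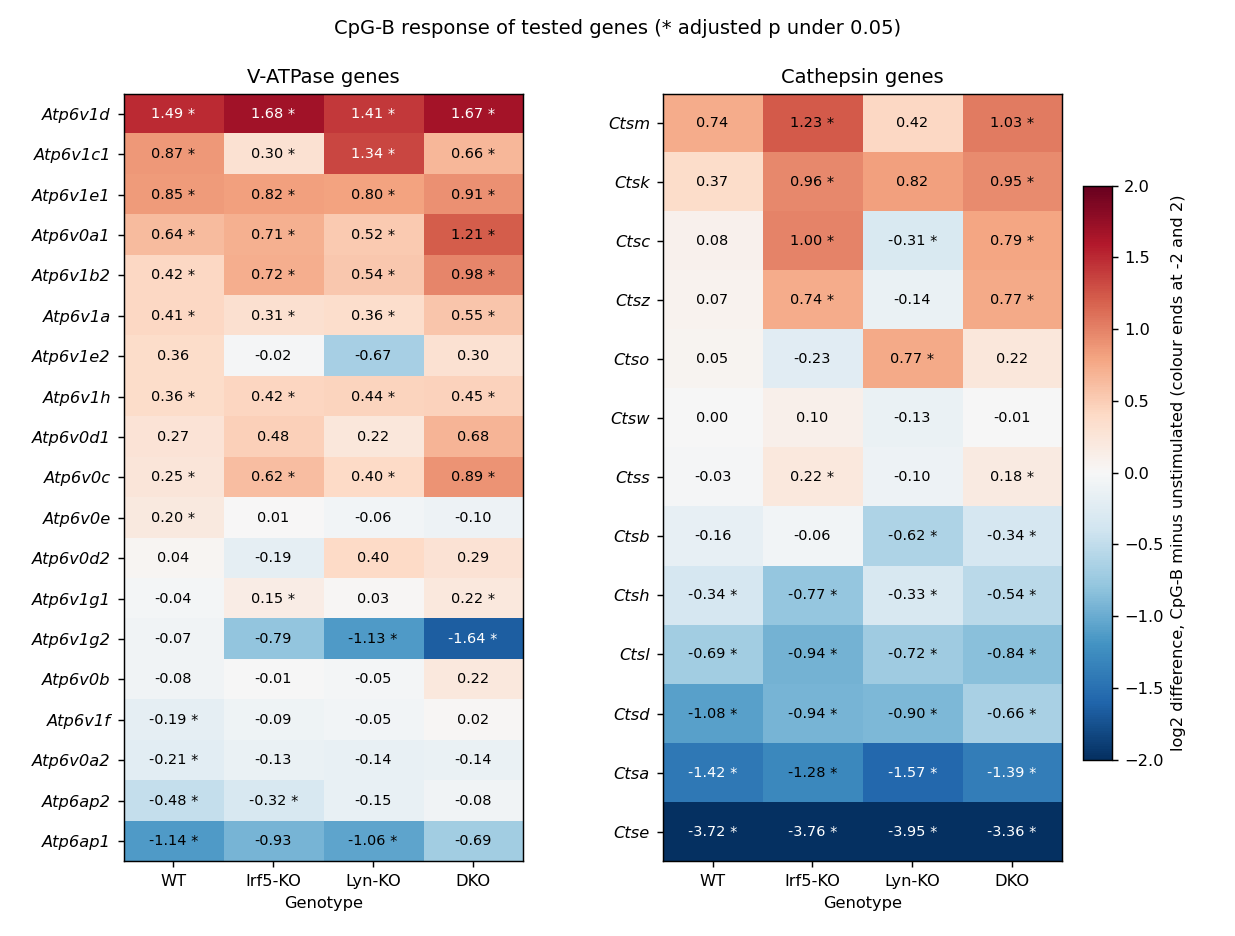
Heat map of the 32 tested genes (rows, V-ATPase and cathepsin) in the 4 genotypes (columns), coloured by the log2 difference of CpG-B minus unstimulated cells with the colour ending at -2 and 2, and an asterisk for an adjusted p under 0.05 (limma). Atp6v1d (1.49 in WT) and Ctse (-3.72 in WT) keep their direction across genotypes, while Ctsc and Ctsz change between columns. The Ctse values are set against CpG-B signals not well above background, so their size is uncertain.

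In the V1 head, Atp6v1a, the A subunit that hydrolyses ATP, had unstimulated levels of 2.96, 3.11 and 3.08 in WT, 3.11, 3.19 and 3.09 in Irf5-KO, 3.06, 3.15 and 3.17 in Lyn-KO and 3.25, 3.21 and 3.10 in DKO. With CpG-B it had 3.41, 3.52 and 3.44 in WT, 3.45, 3.52 and 3.36 in Irf5-KO, 3.37, 3.50 and 3.58 in Lyn-KO and 3.79, 3.68 and 3.74 in DKO. In each genotype the arrays with CpG-B were above the unstimulated ones, and with CpG-B those of DKO were above all others. The responses were 0.41 ± 0.06 (adjusted p = 1.35e-05) in WT, 0.31 ± 0.06 (adjusted p = 0.00026) in Irf5-KO, 0.36 ± 0.06 (adjusted p = 6.21e-05) in Lyn-KO and 0.55 ± 0.06 (adjusted p = 2.96e-07) in DKO. In normexp those of Irf5-KO (0.06, adjusted p = 0.545) and Lyn-KO (0.13, adjusted p = 0.185) were not called. Its second probe gave 0.35 (adjusted p = 0.000291) in WT and 0.18 (adjusted p = 0.0392) in Irf5-KO. With CpG-B, DKO differed from WT by 0.28 ± 0.06 (adjusted p = 0.00147), from Irf5-KO by 0.29 ± 0.06 (adjusted p = 0.00151) and from Lyn-KO by 0.25 ± 0.06 (adjusted p = 0.00501). The calls ended in normexp (0.10, adjusted p = 0.382, 0.20, adjusted p = 0.105 and 0.16, adjusted p = 0.198), and the last also in a fit of the compared groups alone (0.25, adjusted p = 0.061). On the second probe the difference from WT was not called (0.16, adjusted p = 0.0762), and those from Irf5-KO and Lyn-KO were 0.26 (adjusted p = 0.00995) and 0.21 (adjusted p = 0.0322).

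Atp6v1b2, the B subunit that alternates with A in the head, was at -0.17, -0.05 and -0.30 in WT, -0.13, -0.01 and -0.18 in Irf5-KO, -0.22, -0.07 and -0.28 in Lyn-KO and -0.09, -0.09 and -0.33 in DKO without CpG-B. The levels with CpG-B were 0.25, 0.31 and 0.18 in WT, 0.55, 0.59 and 0.70 in Irf5-KO, 0.43, 0.42 and 0.21 in Lyn-KO and 0.95, 0.85 and 0.63 in DKO. CpG-B arrays were above unstimulated ones in each genotype, and those of Irf5-KO and DKO were above all of WT. The responses were 0.42 ± 0.09 (adjusted p = 0.000642) in WT, 0.72 ± 0.09 (adjusted p = 1.66e-06) in Irf5-KO, 0.54 ± 0.09 (adjusted p = 4.91e-05) in Lyn-KO and 0.98 ± 0.09 (adjusted p = 2.09e-08) in DKO, and that of DKO exceeded that of WT by 0.56 ± 0.13 (adjusted p = 0.00318). After CpG-B, Irf5-KO differed from WT by 0.37 ± 0.09 (adjusted p = 0.00667), DKO from WT by 0.57 ± 0.09 (adjusted p = 6.73e-05) and DKO from Lyn-KO by 0.46 ± 0.09 (adjusted p = 0.000904).

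Among the stalk subunits, Atp6v1d, the D subunit of the turning shaft, had unstimulated levels of 4.57, 4.86 and 4.78 in WT, 4.53, 4.73 and 4.70 in Irf5-KO, 4.87, 4.83 and 4.90 in Lyn-KO and 4.97, 4.89 and 4.79 in DKO. After CpG-B these were 6.31, 6.24 and 6.14 in WT, 6.26, 6.29 and 6.44 in Irf5-KO, 6.25, 6.25 and 6.35 in Lyn-KO and 6.54, 6.55 and 6.59 in DKO. The conditions were apart in every genotype, by more than 1 log2 unit. The rise was 1.49 ± 0.07 (adjusted p = 1.44e-12) in WT, 1.68 ± 0.07 (adjusted p = 2.9e-13) in Irf5-KO, 1.41 ± 0.07 (adjusted p = 3.28e-12) in Lyn-KO and 1.67 ± 0.07 (adjusted p = 2.63e-13) in DKO, which is 2.81-, 3.2-, 2.66- and 3.19-fold. Given CpG-B, DKO differed from WT by 0.33 ± 0.07 (adjusted p = 0.00135) and from Lyn-KO by 0.28 ± 0.07 (adjusted p = 0.00797), calls that ended in normexp (0.09, adjusted p = 0.567 and 0.16, adjusted p = 0.301). Its difference from Irf5-KO, 0.23 ± 0.07 (adjusted p = 0.0254), was lost without any 1 of Irf5-KO CpG-B arrays 1 and 2 and DKO CpG-B arrays 2 and 3 (0.19 to 0.23, adjusted p = 0.0522 to 0.0958). Quantile normalisation, normexp, the unfiltered fit and a fit of the compared groups alone ended it too (0.10 to 0.23, adjusted p = 0.0635 to 0.532).

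Atp6v1e1, the E subunit of the outer stalks, rose by 0.85 ± 0.06 (adjusted p = 4.75e-10) in WT, 0.82 ± 0.06 (adjusted p = 9.5e-10) in Irf5-KO, 0.80 ± 0.06 (adjusted p = 1.26e-09) in Lyn-KO and 0.91 ± 0.06 (adjusted p = 1.82e-10) in DKO. Atp6v1h, the regulatory H subunit, rose by 0.36 ± 0.09 (adjusted p = 0.00147) in WT, 0.42 ± 0.09 (adjusted p = 0.000353) in Irf5-KO, 0.44 ± 0.09 (adjusted p = 0.000218) in Lyn-KO and 0.45 ± 0.09 (adjusted p = 0.000165) in DKO. Neither was called in a genotype comparison.

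Atp6v1c1, the C subunit that ties the outer stalks to V0 and takes part in the reversible assembly of the pump, responded differently by genotype, in both directions. Without CpG-B it was at 1.67, 1.72 and 1.58 in WT, 1.69, 1.69 and 1.57 in Irf5-KO, 1.68, 1.68 and 1.63 in Lyn-KO and 1.80, 1.62 and 1.60 in DKO. With CpG-B it reached 2.67, 2.50 and 2.41 in WT, 2.01, 1.94 and 1.90 in Irf5-KO, 3.10, 2.96 and 2.96 in Lyn-KO and 2.38, 2.36 and 2.26 in DKO. The unstimulated mutants overlapped WT, while with CpG-B no genotypes overlapped, with Lyn-KO highest, then WT, DKO and Irf5-KO. The rise was 0.87 ± 0.07 (adjusted p = 1.74e-09) in WT, 0.30 ± 0.07 (adjusted p = 0.000916) in Irf5-KO, 1.34 ± 0.07 (adjusted p = 2.5e-12) in Lyn-KO and 0.66 ± 0.07 (adjusted p = 8.62e-08) in DKO. Against the WT response, that of Irf5-KO differed by -0.57 ± 0.10 (adjusted p = 0.000593) and that of Lyn-KO by 0.48 ± 0.10 (adjusted p = 0.00336). With CpG-B, Irf5-KO differed from WT by -0.58 ± 0.07 (adjusted p = 5.1e-06) and Lyn-KO by 0.48 ± 0.07 (adjusted p = 4.05e-05). The 2 comparisons share the WT arrays. DKO differed from Irf5-KO by 0.38 ± 0.07 (adjusted p = 0.000277) and from Lyn-KO by -0.68 ± 0.07 (adjusted p = 4.68e-07). The difference of DKO from WT, -0.19 ± 0.07 (adjusted p = 0.0321), was lost without any 1 of WT CpG-B array 1 and DKO CpG-B array 3 (-0.15 to -0.12, adjusted p = 0.128 to 0.19). Fitting only the compared groups, the unfiltered fit and normexp also ended it (-0.19, adjusted p = 0.0587 to 0.138).

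Atp6v1f, the F subunit of the shaft, was at 6.10, 6.00 and 6.14 in WT, 6.12, 6.03 and 6.12 in Irf5-KO, 6.14, 6.04 and 6.09 in Lyn-KO and 6.05, 6.07 and 6.09 in DKO without CpG-B. With CpG-B it was at 5.91, 5.81 and 5.96 in WT, 6.04, 6.02 and 5.94 in Irf5-KO, 6.02, 5.99 and 6.10 in Lyn-KO and 6.11, 6.00 and 6.16 in DKO. The conditions overlapped in each mutant but not in WT, where CpG-B arrays were lower. The WT response was -0.19 ± 0.05 (adjusted p = 0.00532); the call was lost in a fit of the compared groups alone (-0.19, adjusted p = 0.0617), and quantile normalisation gave -0.42, adjusted p = 2.68e-07. In DKO the response of 0.02 ± 0.05 (adjusted p = 0.745) turned to -0.32, adjusted p = 9.68e-06 under quantile normalisation and -0.45, adjusted p = 2.21e-06 in normexp. After CpG-B, DKO differed from WT by 0.20 ± 0.05 (adjusted p = 0.00566), a call lost in quantile normalisation, normexp and a fit of the compared groups alone (0.01 to 0.20, adjusted p = 0.0806 to 0.923). The DKO response differed from that of WT by 0.21 ± 0.08 (adjusted p = 0.0492), which was lost without any 1 of WT unstimulated arrays 1 and 3, DKO unstimulated arrays 1, 2 and 3, WT CpG-B arrays 1 and 2 and DKO CpG-B arrays 1 and 3 (0.17 to 0.22, adjusted p = 0.061 to 0.128) and in quantile normalisation, normexp, the unfiltered fit, a fit of the compared groups alone, the deposited series table and the fit of single probes (-0.04 to 0.21, adjusted p = 0.0545 to 0.777) and turned in normexp. Between this gene and Irf5 lie 2 protein-coding genes, and no unstimulated genotype comparison of it was called.

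Atp6v1g1, the widely expressed G subunit, was at 4.62, 4.60 and 4.62 in WT, 4.54, 4.59 and 4.57 in Irf5-KO, 4.66, 4.74 and 4.64 in Lyn-KO and 4.75, 4.76 and 4.72 in DKO without CpG-B. With it the levels were 4.60, 4.58 and 4.55 in WT, 4.65, 4.71 and 4.79 in Irf5-KO, 4.73, 4.71 and 4.68 in Lyn-KO and 4.95, 4.97 and 4.96 in DKO. The DKO arrays were above all others with CpG-B, and above WT and Irf5-KO without it. CpG-B raised it in Irf5-KO by 0.15 ± 0.04 (adjusted p = 0.00266) and in DKO by 0.22 ± 0.04 (adjusted p = 0.000106), but both turned under quantile normalisation (-0.07 and -0.09) and normexp (-0.11 and -0.18), and the first was lost in a fit of the compared groups alone. In Lyn-KO the response of 0.03 ± 0.04 (adjusted p = 0.554) turned to -0.18, adjusted p = 0.000667 under quantile normalisation and -0.25, adjusted p = 0.00017 in normexp. Given CpG-B, DKO differed from WT by 0.38 ± 0.04 (adjusted p = 3.59e-07), from Irf5-KO by 0.24 ± 0.04 (adjusted p = 0.000136) and from Lyn-KO by 0.25 ± 0.04 (adjusted p = 9.49e-05). In normexp the first was 0.22, adjusted p = 0.00151, and the others were lost (0.11, adjusted p = 0.108 and 0.12, adjusted p = 0.0896). The DKO response differed from that of WT by 0.25 ± 0.06 (adjusted p = 0.00244), lost in quantile normalisation and normexp (0.06 to 0.13, adjusted p = 0.112 to 0.57).

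The smaller calls of Atp6v1g1 rested on single arrays. Irf5-KO against WT with CpG-B, 0.14 ± 0.04 (adjusted p = 0.0144), was lost without any 1 of WT CpG-B array 3 and Irf5-KO CpG-B array 3 (0.11 to 0.13, adjusted p = 0.0536 to 0.0852). The unfiltered fit, a fit of the compared groups alone and normexp ended it too (0.11 to 0.14, adjusted p = 0.0841 to 0.186). Lyn-KO against WT with CpG-B, 0.13 ± 0.04 (adjusted p = 0.0219), was lost without any 1 of Lyn-KO CpG-B arrays 1 and 2 and WT CpG-B array 3 (0.12 to 0.13, adjusted p = 0.0593 to 0.0823). Quantile normalisation, normexp, the unfiltered fit and a fit of the compared groups alone also ended it (0.10 to 0.13, adjusted p = 0.0908 to 0.178). The response difference of Irf5-KO, 0.19 ± 0.06 (adjusted p = 0.0361), was lost without any 1 of WT unstimulated arrays 1, 2 and 3, Irf5-KO unstimulated arrays 1 and 3, WT CpG-B arrays 2 and 3 and Irf5-KO CpG-B arrays 2 and 3 (0.15 to 0.20, adjusted p = 0.0505 to 0.0965). Fitting only the compared groups, the unfiltered fit, normexp and quantile normalisation ended it too (0.12 to 0.19, adjusted p = 0.125 to 0.318). Unstimulated DKO against Irf5-KO, 0.18 ± 0.04 (adjusted p = 0.0114), was lost without Irf5-KO unstimulated array 1 (0.17, adjusted p = 0.0567). The unfiltered fit, a fit of the compared groups alone and normexp also ended it (0.18, adjusted p = 0.0528 to 0.106).

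Isoforms of other tissues were near background. Atp6v1g2, the G subunit of neurons, was well above it on 8 of 12 unstimulated and 3 of 12 CpG-B arrays, the 3 of WT, the group through which it passed the filter and the higher one in the comparisons with WT after CpG-B. The filter thus favoured a high WT value there, so the comparisons that use this group are only described. Its unstimulated levels were -3.24, -3.35 and -3.08 in WT, -3.41, -3.20 and -3.12 in Irf5-KO, -2.87, -3.24 and -3.20 in Lyn-KO and -3.00, -2.98 and -3.10 in DKO. Those with CpG-B were -2.98, -3.80 and -3.10 in WT, -3.65, -3.71 and -4.74 in Irf5-KO, -3.84, -4.34 and -4.52 in Lyn-KO and -5.44, -3.48 and -5.10 in DKO. The Lyn-KO and DKO arrays with CpG-B were below every unstimulated array. The fall was called in Lyn-KO at -1.13 ± 0.37 (adjusted p = 0.012) and in DKO at -1.64 ± 0.37 (adjusted p = 0.000691), at least 1.48- and 1.3-fold lower, and normexp gave -0.29 and -0.32. The Lyn-KO call was lost without both Lyn-KO arrays numbered 3 (-1.04, adjusted p = 0.0683). With CpG-B, DKO overlapped WT and differed by -1.38 ± 0.37 (adjusted p = 0.00528), at least 1.09-fold, a call lost in a fit of the compared groups alone (-1.38, adjusted p = 0.0901) and without both DKO arrays numbered 1 (-1.00, adjusted p = 0.0503); normexp gave -0.32. The response difference of DKO, -1.58 ± 0.53 (adjusted p = 0.0301), was lost without any 1 of WT unstimulated arrays 1 and 2, DKO unstimulated arrays 1 and 2, WT CpG-B arrays 1 and 3 and DKO CpG-B arrays 1 and 3 (-1.57 to -1.19, adjusted p = 0.0529 to 0.0907). Quantile normalisation, normexp, the unfiltered fit and a fit of the compared groups alone ended it too (-1.58 to -0.42, adjusted p = 0.0502 to 0.0788).

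Atp6v1e2, the E subunit of testis, was well above background on 13 arrays and was not called. Array 1 of unstimulated Lyn-KO read -0.51 where the other unstimulated arrays read -3.96 to -3.36, and without it the Lyn-KO response turned from -0.67 ± 0.49 (adjusted p = 0.239) to 0.34, adjusted p = 0.0466.

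**Figure D2:**
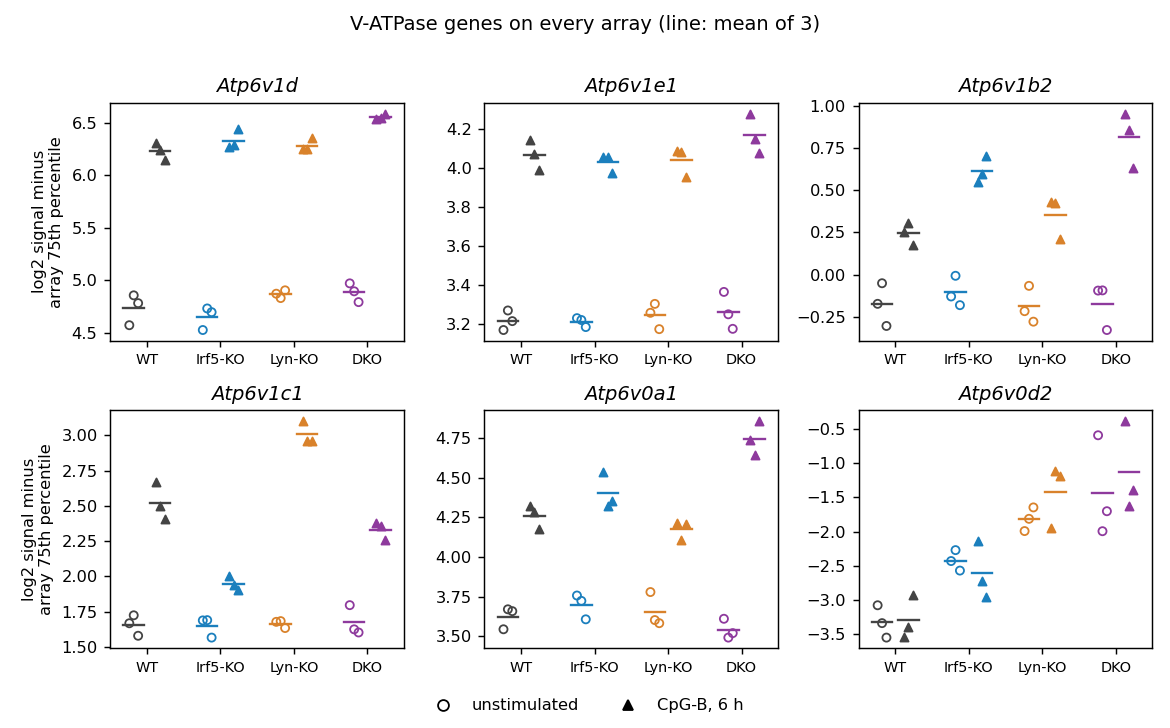
Levels of 6 V-ATPase genes on every array, as log2 signal minus the 75th percentile of the array, with open circles for unstimulated cells, filled triangles for CpG-B and a line at the mean of 3. Atp6v1d and Atp6v1e1 are higher with CpG-B in the 4 genotypes, and Atp6v1c1 with CpG-B lies at 1.90 to 2.01 in Irf5-KO and 2.96 to 3.10 in Lyn-KO.

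In the membrane part, Atp6v0a1, an isoform of the a subunit that forms the path of the protons, had unstimulated levels of 3.54, 3.67 and 3.66 in WT, 3.76, 3.72 and 3.61 in Irf5-KO, 3.78, 3.60 and 3.58 in Lyn-KO and 3.61, 3.49 and 3.52 in DKO. With CpG-B they were 4.32, 4.29 and 4.18 in WT, 4.54, 4.32 and 4.36 in Irf5-KO, 4.22, 4.11 and 4.21 in Lyn-KO and 4.74, 4.64 and 4.86 in DKO. All CpG-B arrays were above all unstimulated ones, and those of DKO above all others. It rose by 0.64 ± 0.07 (adjusted p = 2.97e-07) in WT, 0.71 ± 0.07 (adjusted p = 7.17e-08) in Irf5-KO, 0.52 ± 0.07 (adjusted p = 3.74e-06) in Lyn-KO and 1.21 ± 0.07 (adjusted p = 2.71e-11) in DKO, in DKO 2.31-fold. In normexp the rise was 0.41, 0.46 and 0.29 in WT, Irf5-KO and Lyn-KO, with the calls kept. The DKO response exceeded that of WT by 0.57 ± 0.10 (adjusted p = 0.000348). With CpG-B, DKO differed from WT by 0.49 ± 0.07 (adjusted p = 2.47e-05), from Irf5-KO by 0.34 ± 0.07 (adjusted p = 0.00134) and from Lyn-KO by 0.57 ± 0.07 (adjusted p = 7.4e-06).

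Atp6v0c, the main proteolipid of the ring, was at 5.26, 5.47 and 5.24 in WT, 5.55, 5.46 and 5.28 in Irf5-KO, 5.61, 5.34 and 5.38 in Lyn-KO and 5.58, 5.46 and 5.28 in DKO without CpG-B. With CpG-B it was at 5.76, 5.53 and 5.43 in WT, 6.13, 6.01 and 6.00 in Irf5-KO, 5.88, 5.81 and 5.87 in Lyn-KO and 6.38, 6.30 and 6.32 in DKO. The conditions overlapped in WT and not in the mutants, and with CpG-B every mutant array was above every WT array. The rise was 0.25 ± 0.10 (adjusted p = 0.0322) in WT, 0.62 ± 0.10 (adjusted p = 1.83e-05) in Irf5-KO, 0.40 ± 0.10 (adjusted p = 0.0013) in Lyn-KO and 0.89 ± 0.10 (adjusted p = 1.36e-07) in DKO. The WT call was lost without any 1 of WT unstimulated arrays 1 and 3 and WT CpG-B array 1 (0.15 to 0.22, adjusted p = 0.096 to 0.191) and in quantile normalisation, normexp, the unfiltered fit and a fit of the compared groups alone (0.01 to 0.25, adjusted p = 0.0722 to 0.919), the Irf5-KO call in normexp (0.19, adjusted p = 0.158) and the Lyn-KO call in quantile normalisation and normexp (0.00 to 0.15, adjusted p = 0.242 to 0.995). The DKO rise was 0.54 in quantile normalisation and 0.39 in normexp, with the call kept. After CpG-B, Irf5-KO differed from WT by 0.48 ± 0.10 (adjusted p = 0.0013), DKO from WT by 0.76 ± 0.10 (adjusted p = 3.69e-06) and DKO from Lyn-KO by 0.49 ± 0.10 (adjusted p = 0.00077). The response difference of DKO was 0.65 ± 0.14 (adjusted p = 0.00146), lost in normexp (0.33, adjusted p = 0.15). Lyn-KO against WT with CpG-B, 0.28 ± 0.10 (adjusted p = 0.0457), was lost without any 1 of Lyn-KO CpG-B arrays 1, 2 and 3 and WT CpG-B arrays 2 and 3 (0.21 to 0.30, adjusted p = 0.0689 to 0.199). The deposited series table, a fit of the compared groups alone, the unfiltered fit, normexp and quantile normalisation also ended it (0.20 to 0.28, adjusted p = 0.0615 to 0.263). DKO against Irf5-KO, 0.29 ± 0.10 (adjusted p = 0.03), was lost without any 1 of DKO CpG-B arrays 1, 2 and 3 and Irf5-KO CpG-B arrays 2 and 3 (0.27 to 0.30, adjusted p = 0.0521 to 0.0879). Normexp, the unfiltered fit and quantile normalisation ended it too (0.18 to 0.29, adjusted p = 0.0746 to 0.286).

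Atp6v0e, the small e subunit, had unstimulated levels of 6.37, 6.40 and 6.40 in WT, 6.28, 6.45 and 6.44 in Irf5-KO, 6.47, 6.46 and 6.52 in Lyn-KO and 6.39, 6.46 and 6.44 in DKO. With CpG-B they were 6.54, 6.62 and 6.60 in WT, 6.26, 6.47 and 6.47 in Irf5-KO, 6.41, 6.40 and 6.47 in Lyn-KO and 6.31, 6.29 and 6.38 in DKO. With CpG-B the WT arrays were above those of each mutant. The WT response was 0.20 ± 0.06 (adjusted p = 0.00526), but 0.04, adjusted p = 0.584 under quantile normalisation and, turned, -0.07, adjusted p = 0.246 in normexp. The responses of Irf5-KO, Lyn-KO and DKO were 0.01 ± 0.06 (adjusted p = 0.902), -0.06 ± 0.06 (adjusted p = 0.369) and -0.10 ± 0.06 (adjusted p = 0.116). That of Irf5-KO turned to -0.22, adjusted p = 0.0021 under quantile normalisation and -0.31, adjusted p = 3.02e-05 in normexp. Given CpG-B, DKO differed from WT by -0.26 ± 0.06 (adjusted p = 0.00114), and its response by -0.30 ± 0.08 (adjusted p = 0.00824). Under quantile normalisation these were -0.42 and -0.46. Irf5-KO against WT with CpG-B, -0.18 ± 0.06 (adjusted p = 0.0236), was lost without any 1 of Irf5-KO CpG-B array 1 and WT CpG-B arrays 2 and 3 (-0.18 to -0.11, adjusted p = 0.0585 to 0.151). The unfiltered fit and a fit of the compared groups alone also ended it (-0.18, adjusted p = 0.0842 to 0.174). Lyn-KO against WT, -0.16 ± 0.06 (adjusted p = 0.0473), was lost without any 1 of the 6 arrays compared (-0.19 to -0.14, adjusted p = 0.0506 to 0.132). The fit of single probes, a fit of the compared groups alone and the unfiltered fit ended it too (-0.16, adjusted p = 0.0528 to 0.145). The response difference of Lyn-KO, -0.26 ± 0.08 (adjusted p = 0.0497), was lost without any 1 of the 12 arrays compared (-0.28 to -0.24, adjusted p = 0.0521 to 0.113). The fit of single probes and the unfiltered fit also ended it (-0.26, adjusted p = 0.0565 to 0.17).

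Atp6v0b, the second proteolipid of the ring, had unstimulated levels of 4.09, 4.21 and 4.17 in WT, 4.19, 4.19 and 4.15 in Irf5-KO, 4.35, 4.23 and 4.58 in Lyn-KO and 4.30, 4.27 and 4.22 in DKO. The CpG-B levels were 4.07, 4.12 and 4.04 in WT, 4.09, 4.19 and 4.21 in Irf5-KO, 4.12, 4.27 and 4.64 in Lyn-KO and 4.45, 4.52 and 4.47 in DKO. The DKO arrays with CpG-B were above those of WT and Irf5-KO. No response was called. The values were -0.08 ± 0.10 (adjusted p = 0.5), -0.01 ± 0.10 (adjusted p = 0.913), -0.05 ± 0.10 (adjusted p = 0.693) and 0.22 ± 0.10 (adjusted p = 0.0564) in WT, Irf5-KO, Lyn-KO and DKO, the last with an adjusted p of 0.0491 with the slide as a block. With CpG-B, DKO differed from WT by 0.40 ± 0.10 (adjusted p = 0.00237) and from Irf5-KO by 0.32 ± 0.10 (adjusted p = 0.0174), the latter lost without any 1 of Irf5-KO CpG-B array 1 and DKO CpG-B array 2 (0.28 to 0.30, adjusted p = 0.0556 to 0.0676). Quantile normalisation ended it too (0.23, adjusted p = 0.0809).

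Atp6v0a2, an a subunit of the Golgi and endosomes, was at 1.69, 1.68 and 1.64 in WT, 1.46, 1.50 and 1.52 in Irf5-KO, 1.43, 1.44 and 1.49 in Lyn-KO and 1.38, 1.32 and 1.43 in DKO without CpG-B. With it the levels were 1.51, 1.45 and 1.40 in WT, 1.38, 1.23 and 1.47 in Irf5-KO, 1.44, 1.38 and 1.11 in Lyn-KO and 1.32, 1.33 and 1.07 in DKO. The unstimulated WT arrays were above those of each mutant. The WT response, -0.21 ± 0.08 (adjusted p = 0.0256), was lost without any 1 of WT unstimulated arrays 1 and 2 and WT CpG-B arrays 2 and 3 (-0.21 to -0.19, adjusted p = 0.0553 to 0.0821). The unfiltered fit also ended it (-0.21, adjusted p = 0.0635). DKO against WT without CpG-B, -0.29 ± 0.08 (adjusted p = 0.0365), was lost without any 1 of the 6 arrays compared (-0.32 to -0.26, adjusted p = 0.0542 to 0.124). Fitting only the compared groups and the unfiltered fit ended it too (-0.29, adjusted p = 0.0676 to 0.105). DKO against WT with CpG-B, -0.21 ± 0.08 (adjusted p = 0.0385), was lost without any 1 of WT CpG-B arrays 1 and 2 and DKO CpG-B array 3 (-0.22 to -0.13, adjusted p = 0.0732 to 0.226). Normexp, the unfiltered fit and a fit of the compared groups alone also ended it (-0.21 to -0.18, adjusted p = 0.0938 to 0.151).

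Atp6v0d1, the d subunit that links the shaft to the ring in most cells, had a gap between arrays. It was at -3.61, 3.56 and 3.46 in WT, 3.60, 3.57 and 3.56 in Irf5-KO, 3.67, 3.60 and 3.47 in Lyn-KO and 3.75, 3.61 and 3.54 in DKO without CpG-B. With CpG-B it was at -3.15, 3.70 and 3.69 in WT, 4.02, 4.01 and 4.14 in Irf5-KO, 3.86, 3.83 and 3.71 in Lyn-KO and 4.31, 4.36 and 4.28 in DKO. Both WT arrays numbered 1 stood 134- and 98.1-fold below the lowest of the other 22, which spanned 3.46 to 4.36. No comparison was called (standard error of a response 1.56). With both left out, a choice made after seeing the data, the responses were 0.18 ± 0.08 (adjusted p = 0.0514) in WT, 0.48 ± 0.06 (adjusted p = 4.5e-06) in Irf5-KO, 0.22 ± 0.06 (adjusted p = 0.00582) in Lyn-KO and 0.68 ± 0.06 (adjusted p = 5.52e-08) in DKO. Then, with CpG-B, Irf5-KO differed from WT by 0.36 ± 0.07 (adjusted p = 0.00162), Lyn-KO by 0.10 ± 0.07 (adjusted p = 0.338) and DKO by 0.62 ± 0.07 (adjusted p = 3.26e-06), and DKO differed from Irf5-KO by 0.26 ± 0.06 (adjusted p = 0.00505) and from Lyn-KO by 0.52 ± 0.06 (adjusted p = 1.03e-05). On this pair of arrays 10 features stood more than 1 log2 unit below the other WT arrays of the same condition and 6 above them, in both conditions. The counts for the other pairs are likewise within their own genotype and condition. On the Lyn-KO arrays numbered 3 these counts were 36, Atp6ap1 among them, and 4, and on the DKO arrays numbered 1 they were 0 and 46, Atp6v0d2 among them. On the Lyn-KO arrays numbered 1 they were 37 and 6, with none of the 43 genes. The cause of the gap was not tested.

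Of the accessory proteins, Atp6ap1, which binds V0, was low on both Lyn-KO arrays numbered 3. Without CpG-B it was at 2.40, 2.44 and 2.24 in WT, 2.48, 2.44 and 2.40 in Irf5-KO, 2.62, 2.44 and 0.84 in Lyn-KO and 2.74, 2.43 and 2.38 in DKO. With CpG-B it was at 1.28, 1.14 and 1.25 in WT, 1.67, 1.40 and 1.46 in Irf5-KO, 1.70, 1.45 and -0.44 in Lyn-KO and 2.00, 1.96 and 1.50 in DKO. Apart from that pair, each CpG-B array was below each unstimulated array. The responses with all arrays were -1.14 ± 0.43 (adjusted p = 0.0261) in WT, -0.93 ± 0.43 (adjusted p = 0.0656) in Irf5-KO, -1.06 ± 0.43 (adjusted p = 0.0361) in Lyn-KO and -0.69 ± 0.43 (adjusted p = 0.16) in DKO. The WT call was lost without any 1 of WT unstimulated arrays 1 and 2 and WT CpG-B arrays 2 and 3 (-1.15 to -1.09, adjusted p = 0.0502 to 0.0622). The unfiltered fit and normexp ended it too (-1.14 to -1.10, adjusted p = 0.0511 to 0.0544). The Lyn-KO call was lost without any 1 of Lyn-KO unstimulated arrays 1 and 2 and Lyn-KO CpG-B array 3 (-0.83 to -0.39, adjusted p = 0.141 to 0.322) and in normexp, the unfiltered fit and a fit of the compared groups alone (-1.06 to -1.01, adjusted p = 0.069 to 0.246), and without Lyn-KO unstimulated array 3 it was -1.63, adjusted p = 0.00132. With the slide as a block the Irf5-KO fall was called too (-0.93, adjusted p = 0.0311). Leaving out the pair was a choice made after seeing the data. Without the pair, the fall was called in each genotype, at -1.14 ± 0.13 (adjusted p = 4.13e-07), -0.93 ± 0.13 (adjusted p = 4.87e-06), -0.96 ± 0.15 (adjusted p = 3.77e-05) and -0.69 ± 0.13 (adjusted p = 0.000103). The second probe, with all arrays, gave -1.23 (adjusted p = 8.03e-07), -0.97 (adjusted p = 1.59e-05), -1.07 (adjusted p = 4.57e-06) and -0.84 (adjusted p = 7.44e-05). After CpG-B, the difference of DKO from WT was not called with all arrays (0.60, adjusted p = 0.293 in the fit of single probes). It was 0.60 ± 0.13 (adjusted p = 0.000927) without the pair, which is not in this comparison and enters only through the shared spread. The second probe, with all arrays, gave 0.58 (adjusted p = 0.00456).

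Atp6ap2, the prorenin receptor, which also takes part in V0 assembly, was at 3.56, 3.42 and 3.53 in WT, 3.29, 3.38 and 3.43 in Irf5-KO, 3.48, 3.46 and 3.50 in Lyn-KO and 3.54, 3.54 and 3.55 in DKO without CpG-B. With it the levels were 3.08, 3.04 and 2.95 in WT, 3.00, 2.93 and 3.22 in Irf5-KO, 3.21, 3.24 and 3.52 in Lyn-KO and 3.41, 3.53 and 3.47 in DKO. CpG-B arrays were below unstimulated ones in WT and Irf5-KO and overlapped them in Lyn-KO, and those of DKO were above those of WT and Irf5-KO. The responses were -0.48 ± 0.08 (adjusted p = 2.23e-05) in WT, -0.32 ± 0.08 (adjusted p = 0.00149) in Irf5-KO, -0.15 ± 0.08 (adjusted p = 0.0907) in Lyn-KO and -0.08 ± 0.08 (adjusted p = 0.405) in DKO. That of DKO differed from that of WT by 0.41 ± 0.11 (adjusted p = 0.00892), lost in normexp (0.33, adjusted p = 0.0671). Given CpG-B, DKO differed from WT by 0.45 ± 0.08 (adjusted p = 0.000119) and from Irf5-KO by 0.42 ± 0.08 (adjusted p = 0.000367). Lyn-KO against WT, 0.30 ± 0.08 (adjusted p = 0.0072), was lost without Lyn-KO CpG-B array 3 (0.21, adjusted p = 0.0537). Fitting only the compared groups also ended it (0.30, adjusted p = 0.0889).

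**Figure D3:**
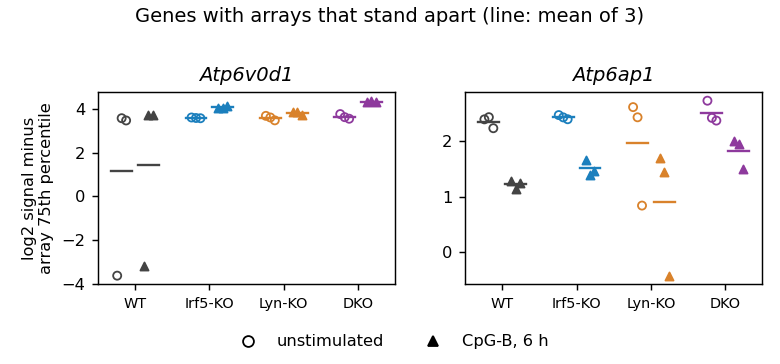
Levels of Atp6v0d1 and Atp6ap1 on every array, as log2 signal minus the 75th percentile of the array, with open circles for unstimulated cells, filled triangles for CpG-B and a line at the mean of 3. The WT arrays numbered 1 read -3.61 and -3.15 for Atp6v0d1, far below the other 22, and the Lyn-KO arrays numbered 3 read 0.84 and -0.44 for Atp6ap1.

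The aspartic and serine cathepsins fell in every genotype. In WT the summed level of macrophage and monocyte markers was 136 to 138 without and 48.7 to 52 with CpG-B. Of 11 tested, 2 and 6 were called higher and lower. That of type 1 conventional dendritic cell markers was 399 to 435 and 202 to 235, with 1 and 6 of 7. Not all sums fell. Plasmacytoid dendritic cell markers were at 475 to 587 and 726 to 781, with 5 and 3 of 10 higher and lower (median log2 difference 0.27). Osteoclast markers were at 15.3 to 16.5 and 100 to 125, though 2 and 3 of 6 tested were higher and lower (median -0.43). Type 2 conventional dendritic cell markers were at 181 to 184 and 169 to 181, with 2 and 4 of 7 (median -0.70). The part of these cells in the fall of the cathepsins was not tested. Ctse, an aspartic protease of the endosomes of antigen-presenting cells, was at -1.11, -1.20 and -1.06 in WT, -1.07, -1.00 and -1.00 in Irf5-KO, -1.45, -1.30 and -1.13 in Lyn-KO and -1.32, -1.38 and -1.17 in DKO without CpG-B. With CpG-B it was at -5.32, -5.00 and -4.19 in WT, -4.76, -4.79 and -4.82 in Irf5-KO, -4.72, -5.82 and -5.19 in Lyn-KO and -4.05, -5.14 and -4.76 in DKO. It was well above background on 12 of 12 unstimulated and 0 of 12 CpG-B arrays. It thus passed the filter through the unstimulated groups alone, the higher ones in this comparison. The fall is set against the dimmest signal well above background on each CpG-B array. That flag is set spot by spot, so this floor and the bounds given for Atp6v1g2 and Ctsm are rough, not strict. By this floor Ctse was at least 6.46-fold lower in WT, 8.33-fold in Irf5-KO, 5.18-fold in Lyn-KO and 4.36-fold in DKO (adjusted p = 4.57e-10, 4.17e-10, 1.8e-10 and 1.88e-09). No genotype comparison was called.

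Ctsd, the main aspartic protease of lysosomes, had unstimulated levels of 4.67, 4.75 and 4.82 in WT, 5.06, 5.27 and 5.07 in Irf5-KO, 4.70, 4.75 and 4.77 in Lyn-KO and 5.13, 4.91 and 4.83 in DKO. With CpG-B these were 3.59, 3.65 and 3.74 in WT, 4.08, 4.31 and 4.20 in Irf5-KO, 3.70, 3.89 and 3.96 in Lyn-KO and 4.64, 4.17 and 4.10 in DKO. Each CpG-B array was below every unstimulated array, and with CpG-B those of Irf5-KO and DKO were above WT. The responses were -1.08 ± 0.12 (adjusted p = 9.8e-08) in WT, -0.94 ± 0.12 (adjusted p = 7.96e-07) in Irf5-KO, -0.90 ± 0.12 (adjusted p = 1.28e-06) in Lyn-KO and -0.66 ± 0.12 (adjusted p = 5.32e-05) in DKO, with -1.03 in DKO in normexp. The second probe gave -1.20 (adjusted p = 0.000152) in WT and -0.72 (adjusted p = 0.0106) in DKO. With CpG-B, Irf5-KO differed from WT by 0.54 ± 0.12 (adjusted p = 0.00185) and DKO by 0.64 ± 0.12 (adjusted p = 0.000157), where the second probe gave 0.60 (adjusted p = 0.073) and 0.73 (adjusted p = 0.0166). DKO against Lyn-KO, 0.46 ± 0.12 (adjusted p = 0.00495), was 0.29, adjusted p = 0.0347 without DKO CpG-B array 1 and was lost in a fit of the compared groups alone (0.46, adjusted p = 0.0943).

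Ctsa, a serine carboxypeptidase that protects lysosomal galactosidase and neuraminidase, was at 6.36, 6.66 and 6.79 in WT, 6.79, 6.72 and 6.81 in Irf5-KO, 6.77, 6.90 and 6.98 in Lyn-KO and 6.76, 6.87 and 6.87 in DKO without CpG-B. With CpG-B it was at 5.07, 5.12 and 5.34 in WT, 5.64, 5.54 and 5.29 in Irf5-KO, 5.28, 5.35 and 5.32 in Lyn-KO and 5.58, 5.38 and 5.38 in DKO. All CpG-B arrays were below all unstimulated ones. The responses were -1.42 ± 0.10 (adjusted p = 3.81e-10) in WT, -1.28 ± 0.10 (adjusted p = 1.97e-09) in Irf5-KO, -1.57 ± 0.10 (adjusted p = 8.9e-11) in Lyn-KO and -1.39 ± 0.10 (adjusted p = 5.31e-10) in DKO, and the second probe gave -1.27 (adjusted p = 4.67e-07) in WT. Irf5-KO against WT with CpG-B, 0.31 ± 0.10 (adjusted p = 0.034), was lost without any 1 of WT CpG-B arrays 1 and 2 and Irf5-KO CpG-B arrays 1 and 2 (0.24 to 0.28, adjusted p = 0.105 to 0.154). Quantile normalisation, normexp, the unfiltered fit and a fit of the compared groups alone ended it too (0.22 to 0.31, adjusted p = 0.06 to 0.291). DKO against WT, 0.27 ± 0.10 (adjusted p = 0.0443), was lost without any 1 of WT CpG-B arrays 1 and 2 and DKO CpG-B arrays 1, 2 and 3 (0.20 to 0.30, adjusted p = 0.0503 to 0.179) and in quantile normalisation, normexp, the unfiltered fit and a fit of the compared groups alone (0.03 to 0.27, adjusted p = 0.0875 to 0.907), and the second probe gave -0.38 (adjusted p = 0.0523). That probe alone was called for DKO against Lyn-KO, at -0.54 (adjusted p = 0.0103), so the probes disagree.

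Among the cysteine cathepsins, Ctsc and Ctsz rose with CpG-B in Irf5-KO and DKO and were not called higher in WT or Lyn-KO. Ctsc, the dipeptidyl peptidase that activates granule serine proteases, was at 3.55, 3.62 and 3.57 in WT, 3.44, 3.67 and 3.69 in Irf5-KO, 3.39, 3.51 and 3.47 in Lyn-KO and 3.46, 3.65 and 3.59 in DKO without CpG-B. With CpG-B it was at 3.64, 3.72 and 3.62 in WT, 4.38, 4.69 and 4.73 in Irf5-KO, 3.12, 3.15 and 3.17 in Lyn-KO and 4.39, 4.46 and 4.22 in DKO. The Irf5-KO and DKO arrays were above WT and those of Lyn-KO below it. The responses were 0.08 ± 0.09 (adjusted p = 0.428) in WT, 1.00 ± 0.09 (adjusted p = 6.44e-09) in Irf5-KO, -0.31 ± 0.09 (adjusted p = 0.00435) in Lyn-KO and 0.79 ± 0.09 (adjusted p = 1.44e-07) in DKO, with -0.49 in Lyn-KO and 0.52 in DKO in normexp. Against the WT response, Irf5-KO differed by 0.92 ± 0.12 (adjusted p = 4.62e-05) and DKO by 0.71 ± 0.12 (adjusted p = 0.000208). After CpG-B, Irf5-KO differed from WT by 0.94 ± 0.09 (adjusted p = 2.15e-07), Lyn-KO by -0.51 ± 0.09 (adjusted p = 0.000218) and DKO by 0.70 ± 0.09 (adjusted p = 2.75e-06). DKO differed from Lyn-KO by 1.21 ± 0.09 (adjusted p = 4.63e-09). DKO against Irf5-KO, -0.24 ± 0.09 (adjusted p = 0.0399), was lost without any 1 of DKO CpG-B arrays 1 and 3 and Irf5-KO CpG-B arrays 2 and 3 (-0.26 to -0.17, adjusted p = 0.0596 to 0.184). A fit of the compared groups alone and the unfiltered fit also ended it (-0.24, adjusted p = 0.1 to 0.191).

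Ctsz, a carboxypeptidase, was at 5.94, 6.03 and 5.95 in WT, 6.22, 6.09 and 6.02 in Irf5-KO, 6.18, 6.08 and 6.10 in Lyn-KO and 6.23, 6.20 and 6.08 in DKO without CpG-B. With CpG-B it was at 6.11, 6.03 and 5.99 in WT, 6.87, 6.86 and 6.81 in Irf5-KO, 6.06, 6.00 and 5.89 in Lyn-KO and 7.01, 6.93 and 6.86 in DKO. The Irf5-KO and DKO arrays with CpG-B were above all of WT and Lyn-KO. The responses were 0.07 ± 0.06 (adjusted p = 0.344) in WT, 0.74 ± 0.06 (adjusted p = 4.33e-09) in Irf5-KO, -0.14 ± 0.06 (adjusted p = 0.0649) in Lyn-KO and 0.77 ± 0.06 (adjusted p = 2.16e-09) in DKO, where normexp gave -0.26, adjusted p = 0.0181, turned, in WT and 0.45 and 0.41 in Irf5-KO and DKO. The Lyn-KO difference was called with the slide as a block (-0.14, adjusted p = 0.013). Against the WT response, Irf5-KO differed by 0.67 ± 0.09 (adjusted p = 4.02e-05) and DKO by 0.70 ± 0.09 (adjusted p = 7.55e-06). Given CpG-B, Irf5-KO differed from WT by 0.80 ± 0.06 (adjusted p = 2.24e-08), DKO from WT by 0.89 ± 0.06 (adjusted p = 1.48e-09) and DKO from Lyn-KO by 0.95 ± 0.06 (adjusted p = 1.48e-09).

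Markers of macrophages and monocytes differed between genotypes with CpG-B in the direction of Ctsc and Ctsz: their summed level, in multiples of the 75th percentile of the array, was 48.7 to 52 in WT, 71.9 to 86 in Irf5-KO, 40 to 43.8 in Lyn-KO and 58.1 to 84.2 in DKO with CpG-B, and 6 and 0 of 11 tested were higher and lower in Irf5-KO than in WT, 0 and 2 in Lyn-KO and 4 and 0 in DKO. The sum was higher without CpG-B, at 154 to 183 in Irf5-KO and 114 to 131 in DKO, while Ctsc and Ctsz rose with it there. The part of these cells in the difference between genotypes was not tested. In RNA from a mixed culture, fewer cells of a type and less RNA per cell cannot be told apart.

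Ctss, which cuts the invariant chain in antigen-presenting cells, was at 7.44, 7.55 and 7.58 in WT, 7.58, 7.64 and 7.60 in Irf5-KO, 7.49, 7.73 and 7.72 in Lyn-KO and 7.64, 7.76 and 7.67 in DKO without CpG-B. With CpG-B it was at 7.46, 7.48 and 7.54 in WT, 7.78, 7.89 and 7.81 in Irf5-KO, 7.51, 7.61 and 7.53 in Lyn-KO and 7.91, 7.87 and 7.82 in DKO. The Irf5-KO and DKO arrays were then above all of WT and Lyn-KO. The responses were -0.03 ± 0.06 (adjusted p = 0.687) in WT, 0.22 ± 0.06 (adjusted p = 0.00388) in Irf5-KO, -0.10 ± 0.06 (adjusted p = 0.171) in Lyn-KO and 0.18 ± 0.06 (adjusted p = 0.0138) in DKO, of which that of DKO was lost without any 1 of DKO unstimulated array 1 and DKO CpG-B array 1 (0.15 to 0.16, adjusted p = 0.0509 to 0.0574). Normexp and quantile normalisation ended it too (0.15 to 0.16, adjusted p = 0.0723 to 0.0753). With CpG-B, Irf5-KO differed from WT by 0.33 ± 0.06 (adjusted p = 0.000386), DKO from WT by 0.37 ± 0.06 (adjusted p = 5.18e-05) and DKO from Lyn-KO by 0.32 ± 0.06 (adjusted p = 0.000482).

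Ctsh, an aminopeptidase, had unstimulated levels of 7.67, 7.68 and 7.75 in WT, 7.69, 7.69 and 7.78 in Irf5-KO, 7.87, 7.85 and 7.80 in Lyn-KO and 7.68, 7.72 and 7.81 in DKO. With CpG-B they were 7.30, 7.31 and 7.46 in WT, 6.96, 6.96 and 6.93 in Irf5-KO, 7.50, 7.49 and 7.55 in Lyn-KO and 7.19, 7.15 and 7.24 in DKO. All genotypes fell, and with CpG-B they did not overlap, with Lyn-KO highest, then WT, DKO and Irf5-KO. The fall was -0.34 ± 0.05 (adjusted p = 4.92e-06) in WT, -0.77 ± 0.05 (adjusted p = 6.68e-11) in Irf5-KO, -0.33 ± 0.05 (adjusted p = 8.3e-06) in Lyn-KO and -0.54 ± 0.05 (adjusted p = 9.61e-09) in DKO. Against the WT response, that of Irf5-KO differed by -0.42 ± 0.07 (adjusted p = 0.000343). After CpG-B, Irf5-KO differed from WT by -0.40 ± 0.05 (adjusted p = 5.25e-06), DKO from Irf5-KO by 0.24 ± 0.05 (adjusted p = 0.000782) and DKO from Lyn-KO by -0.32 ± 0.05 (adjusted p = 5.58e-05), the last at -0.48 in normexp. Lyn-KO against WT with CpG-B, 0.15 ± 0.05 (adjusted p = 0.0268), was lost without any 1 of WT CpG-B arrays 1 and 2 and Lyn-KO CpG-B array 3 (0.13 to 0.14, adjusted p = 0.0954 to 0.105). Quantile normalisation, normexp, the unfiltered fit and a fit of the compared groups alone also ended it (0.08 to 0.15, adjusted p = 0.0534 to 0.293). DKO against WT, -0.16 ± 0.05 (adjusted p = 0.0113), was lost without any 1 of DKO CpG-B array 2 and WT CpG-B array 3 (-0.14 to -0.11, adjusted p = 0.0517 to 0.0804) and in a fit of the compared groups alone (-0.16, adjusted p = 0.121) and was -0.33 under quantile normalisation. The response difference of DKO, -0.20 ± 0.07 (adjusted p = 0.037), was lost without any 1 of WT unstimulated arrays 1 and 2, DKO CpG-B arrays 1 and 2, DKO unstimulated arrays 2 and 3 and WT CpG-B array 3 (-0.21 to -0.15, adjusted p = 0.0513 to 0.108) and in the unfiltered fit and a fit of the compared groups alone (-0.20, adjusted p = 0.124 to 0.136), and quantile normalisation gave -0.37.

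Ctso, a widely expressed cysteine protease, was at -1.18, -1.10 and -1.23 in WT, -1.24, -1.40 and -1.39 in Irf5-KO, -1.26, -1.14 and -1.10 in Lyn-KO and -1.52, -1.02 and -1.30 in DKO without CpG-B. With CpG-B it was at -1.06, -0.95 and -1.35 in WT, -1.47, -1.64 and -1.62 in Irf5-KO, -0.35, -0.46 and -0.40 in Lyn-KO and -1.12, -1.04 and -1.02 in DKO. The Lyn-KO arrays were then above, and those of Irf5-KO below, all others. The responses were 0.05 ± 0.11 (adjusted p = 0.697) in WT, -0.23 ± 0.11 (adjusted p = 0.0652) in Irf5-KO, 0.77 ± 0.11 (adjusted p = 3.2e-06) in Lyn-KO and 0.22 ± 0.11 (adjusted p = 0.0742) in DKO, and that of Lyn-KO differed from that of WT by 0.72 ± 0.15 (adjusted p = 0.00374), with 0.44 in normexp. Given CpG-B, Irf5-KO differed from WT by -0.45 ± 0.11 (adjusted p = 0.0037) and Lyn-KO by 0.72 ± 0.11 (adjusted p = 5.22e-05), and DKO from Irf5-KO by 0.52 ± 0.11 (adjusted p = 0.000903) and from Lyn-KO by -0.66 ± 0.11 (adjusted p = 8.88e-05).

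Ctsb, an endo- and exopeptidase, had unstimulated levels of 6.38, 6.25 and 6.32 in WT, 6.38, 6.44 and 6.48 in Irf5-KO, 6.47, 6.48 and 6.46 in Lyn-KO and 6.58, 6.51 and 6.43 in DKO. With CpG-B they were 6.15, 6.13 and 6.18 in WT, 6.23, 6.59 and 6.29 in Irf5-KO, 5.86, 5.89 and 5.81 in Lyn-KO and 6.33, 6.19 and 5.97 in DKO. The Lyn-KO arrays with CpG-B were below all others. The responses were -0.16 ± 0.09 (adjusted p = 0.106) in WT, -0.06 ± 0.09 (adjusted p = 0.544) in Irf5-KO, -0.62 ± 0.09 (adjusted p = 3.21e-06) in Lyn-KO and -0.34 ± 0.09 (adjusted p = 0.00157) in DKO, that of DKO -0.68 under quantile normalisation. The Lyn-KO response differed from that of WT by -0.45 ± 0.12 (adjusted p = 0.0196), lost in normexp and the unfiltered fit (-0.45 to -0.41, adjusted p = 0.0621 to 0.0647) and without both Lyn-KO arrays numbered 3 (-0.44, adjusted p = 0.0801). Lyn-KO against WT with CpG-B, -0.30 ± 0.09 (adjusted p = 0.0147), was lost without Lyn-KO CpG-B array 3 (-0.28, adjusted p = 0.054). DKO against Lyn-KO, 0.31 ± 0.09 (adjusted p = 0.00913), was lost without DKO CpG-B array 1 (0.23, adjusted p = 0.0669). A fit of the compared groups alone, normexp and quantile normalisation ended it too (0.21 to 0.31, adjusted p = 0.079 to 0.109).

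Ctsm, a placental cathepsin, was well above background on 3 of 12 unstimulated and 9 of 12 CpG-B arrays. It was at -4.53, -3.78 and -3.80 in WT, -5.12, -4.68 and -4.01 in Irf5-KO, -3.47, -4.02 and -3.73 in Lyn-KO and -5.33, -4.36 and -2.93 in DKO without CpG-B. With CpG-B it was at -2.79, -3.29 and -3.82 in WT, -3.25, -3.58 and -3.29 in Irf5-KO, -3.53, -3.18 and -3.25 in Lyn-KO and -3.31, -3.09 and -3.12 in DKO. The unstimulated arrays scatter over a wide range. The response was called in Irf5-KO at 1.23 ± 0.42 (adjusted p = 0.015), at least 1.49-fold, lost without Irf5-KO unstimulated array 1 (0.98, adjusted p = 0.0761) and in normexp (0.21, adjusted p = 0.124), and in DKO, where 1 of 3 unstimulated arrays was well above background, at 1.03 ± 0.42 (adjusted p = 0.036), lost without any 1 of DKO unstimulated arrays 1 and 2 and DKO CpG-B arrays 1, 2 and 3 (0.47 to 1.10, adjusted p = 0.0528 to 0.281) and in normexp, the unfiltered fit and a fit of the compared groups alone (0.20 to 1.03, adjusted p = 0.0697 to 0.156) and at 1.67, adjusted p = 0.000288 without DKO unstimulated array 3. Ctsw, known from natural killer and CD8 T cells, was not called in any comparison, with responses between -0.13 and 0.10.

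**Figure D4:**
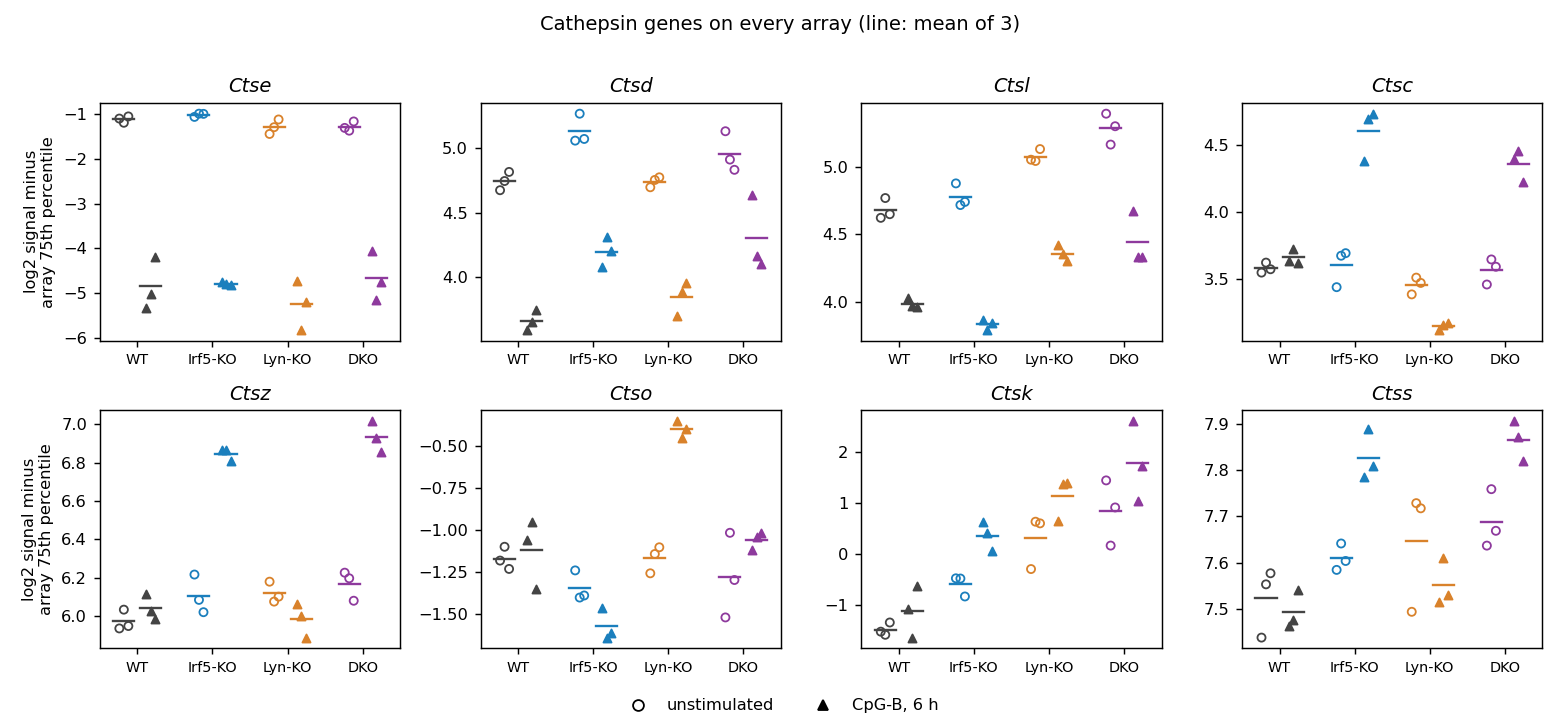
Levels of 8 cathepsin genes on every array, as log2 signal minus the 75th percentile of the array, with open circles for unstimulated cells, filled triangles for CpG-B and a line at the mean of 3. Ctse, Ctsd and Ctsl are lower with CpG-B in each genotype, Ctsc and Ctsz are higher with CpG-B in Irf5-KO and DKO, and the Ctsk arrays of each mutant lie above those of WT in both conditions.

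Without CpG-B, the genotype comparisons compare resting cells with and without each protein. Lyn-KO and DKO cells had more Ctsk, the collagen-degrading protease of osteoclasts, more Ctsl, a lysosomal endopeptidase, and more Atp6v0d2, the d subunit of osteoclasts, than WT cells, and the other members were mostly not called. Of the 32 genes, 3 higher (1.83% of all features) and 0 lower (2.75%) were called in Lyn-KO against WT, where 4.58% of all features were called in either direction. DKO against WT gave 3 higher (3.16% of all features) and 1 lower (3.62%), with 6.78% in either direction. DKO against Irf5-KO gave 3 higher (2.48% of all features) and 0 lower (2.87%), with 5.35% in either direction. Irf5-KO against WT gave 0 of 32 in limma, with 5 at an unadjusted p under 0.05 (0.737% of all features called, 0.317% higher and 0.421% lower), and DKO against Lyn-KO gave 0 with 3 at an unadjusted p under 0.05 (0.163% of all features called, 0.0891% higher and 0.0742% lower). Leaving out each array in turn, 2, 3 and 1 of the calls held in Lyn-KO against WT, DKO against WT and DKO against Irf5-KO. Without Irf5-KO unstimulated array 1, DKO against Irf5-KO gave 1 call in place of 3.

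Ctsk was at -1.51, -1.58 and -1.33 in WT, -0.47, -0.47 and -0.83 in Irf5-KO, -0.29, 0.64 and 0.61 in Lyn-KO and 1.45, 0.17 and 0.92 in DKO without CpG-B. With CpG-B it was at -1.08, -1.63 and -0.62 in WT, 0.63, 0.42 and 0.05 in Irf5-KO, 0.66, 1.37 and 1.39 in Lyn-KO and 2.60, 1.04 and 1.74 in DKO. Every mutant array was above every WT array of the same condition, and DKO array 1 was the highest in both. Without CpG-B, Lyn-KO differed from WT by 1.79 ± 0.37 (adjusted p = 0.0069) and DKO by 2.32 ± 0.37 (adjusted p = 0.000602), 3.47- and 4.99-fold. Irf5-KO differed by 0.88 ± 0.37 (adjusted p = 0.405). The Lyn-KO call was lost without both Lyn-KO arrays numbered 3 (1.65, adjusted p = 0.0513). DKO against Irf5-KO, 1.43 ± 0.37 (adjusted p = 0.0281), was lost without any 1 of Irf5-KO unstimulated arrays 1, 2 and 3 and DKO unstimulated arrays 1 and 3 (1.13 to 1.49, adjusted p = 0.0612 to 0.148). A fit of the compared groups alone and the unfiltered fit also ended it (1.43, adjusted p = 0.0652 to 0.0787). With CpG-B, Irf5-KO differed from WT by 1.48 ± 0.37 (adjusted p = 0.00639), Lyn-KO by 2.25 ± 0.37 (adjusted p = 0.000176) and DKO by 2.90 ± 0.37 (adjusted p = 3.75e-06), which is 2.78-, 4.75- and 7.48-fold, and DKO differed from Irf5-KO by 1.43 ± 0.37 (adjusted p = 0.00604). The responses were 0.37 ± 0.37 (adjusted p = 0.402) in WT, 0.96 ± 0.37 (adjusted p = 0.0309) in Irf5-KO, 0.82 ± 0.37 (adjusted p = 0.0598) in Lyn-KO and 0.95 ± 0.37 (adjusted p = 0.0305) in DKO. That of Irf5-KO was lost without any 1 of Irf5-KO CpG-B arrays 1 and 2 and Irf5-KO unstimulated array 3 (0.83 to 0.93, adjusted p = 0.0675 to 0.1) and in the unfiltered fit (0.96, adjusted p = 0.061), that of DKO without any 1 of DKO CpG-B arrays 1 and 3 and DKO unstimulated arrays 2 and 3 (0.54 to 0.99, adjusted p = 0.0522 to 0.204). The unfiltered fit and a fit of the compared groups alone ended it too (0.95, adjusted p = 0.0599 to 0.125).

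Ctsl was at 4.62, 4.77 and 4.65 in WT, 4.88, 4.72 and 4.74 in Irf5-KO, 5.05, 5.04 and 5.13 in Lyn-KO and 5.39, 5.16 and 5.30 in DKO without CpG-B. With CpG-B it was at 4.03, 3.97 and 3.96 in WT, 3.87, 3.79 and 3.84 in Irf5-KO, 4.42, 4.35 and 4.30 in Lyn-KO and 4.67, 4.33 and 4.33 in DKO. It was lower with CpG-B in each genotype, and in both conditions the Lyn-KO and DKO arrays were above all of WT and Irf5-KO. The fall was -0.69 ± 0.08 (adjusted p = 2.86e-07) in WT, -0.94 ± 0.08 (adjusted p = 4.2e-09) in Irf5-KO, -0.72 ± 0.08 (adjusted p = 1.73e-07) in Lyn-KO and -0.84 ± 0.08 (adjusted p = 1.94e-08) in DKO. Without CpG-B, Lyn-KO differed from WT by 0.40 ± 0.08 (adjusted p = 0.00545), lost in normexp and a fit of the compared groups alone (0.30 to 0.40, adjusted p = 0.0588 to 0.101), DKO from WT by 0.61 ± 0.08 (adjusted p = 7.73e-05) and DKO from Irf5-KO by 0.51 ± 0.08 (adjusted p = 0.00041). After CpG-B, Lyn-KO differed from WT by 0.37 ± 0.08 (adjusted p = 0.0019), DKO from WT by 0.46 ± 0.08 (adjusted p = 0.000109) and DKO from Irf5-KO by 0.61 ± 0.08 (adjusted p = 8.34e-06).

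Atp6v0d2 was at -3.07, -3.34 and -3.55 in WT, -2.43, -2.27 and -2.57 in Irf5-KO, -1.99, -1.81 and -1.64 in Lyn-KO and -0.59, -1.99 and -1.70 in DKO without CpG-B. With CpG-B it was at -3.54, -3.39 and -2.93 in WT, -2.14, -2.72 and -2.96 in Irf5-KO, -1.95, -1.11 and -1.18 in Lyn-KO and -0.39, -1.62 and -1.39 in DKO. It exceeded background clearly on the 21 arrays of 7 groups but on only 1 of 3 unstimulated WT arrays, so the unstimulated differences from WT rest on a level near background. The Lyn-KO and DKO arrays were above WT in both conditions, and DKO array 1 was the highest. Without CpG-B, Lyn-KO differed from WT by 1.50 ± 0.34 (adjusted p = 0.0138), lost without any 1 of WT unstimulated array 3 and Lyn-KO unstimulated array 3 (1.39 to 1.42, adjusted p = 0.0605 to 0.0648). Normexp also ended it (0.70, adjusted p = 0.0527). DKO differed by 1.89 ± 0.34 (adjusted p = 0.0018), 0.94 in normexp, lost in a fit of the compared groups alone (1.89, adjusted p = 0.0686). Given CpG-B, Lyn-KO differed from WT by 1.87 ± 0.34 (adjusted p = 0.000465), DKO from WT by 2.15 ± 0.34 (adjusted p = 4.47e-05) and DKO from Irf5-KO by 1.47 ± 0.34 (adjusted p = 0.0025), with 0.91, 1.13 and 0.86 in normexp. No response was called. Without both DKO arrays numbered 1, left out after seeing the data, DKO differed from WT by 1.47 ± 0.26 (adjusted p = 0.00247) without CpG-B and by 1.78 ± 0.26 (adjusted p = 3.7e-05) with it. The gene lies on the chromosome of Lyn, with 61 protein-coding genes between them.

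Markers of other cells differed between the genotypes too. The summed level of 8 osteoclast markers, in multiples of the 75th percentile of the array, was 15.3 to 16.5 in WT, 18.4 to 22 in Irf5-KO, 20.5 to 30.6 in Lyn-KO and 22 to 38.8 in DKO without CpG-B. With CpG-B it was 100 to 125, 67.2 to 86.2, 105 to 127 and 71.8 to 142. Of 6 tested, 1 and 0 were higher and lower in Lyn-KO than in WT and 2 and 0 in DKO without CpG-B, and with it 3 and 0 in Irf5-KO, 2 and 0 in Lyn-KO and 4 and 0 in DKO. The median log2 difference of the 6 without CpG-B was 0.03 in Lyn-KO and -0.11 in DKO, where Ocstamp, Nfatc1, Oscar and Car2 had differences of -0.26, -0.06, -0.16 and -0.18 and were not called. With CpG-B the sum was lower in Irf5-KO than in WT, but 3 and 0 of the 6 tested were higher and lower there (median 0.30). Ctsk was also higher in Irf5-KO. Calcr, the calcitonin receptor of osteoclasts, was not well above background in any group. Acp5, an acid phosphatase of osteoclasts and macrophages, differed from WT by 1.10 ± 0.28 (adjusted p = 0.0273) in Lyn-KO and 1.33 ± 0.28 (adjusted p = 0.00587) in DKO without CpG-B, and Dcstamp, a cell fusion protein, by 1.05 ± 0.24 (adjusted p = 0.0122) in DKO. All 9 B-cell markers were lower in unstimulated Lyn-KO and DKO than in WT, with a summed level of 73.4 to 113 in WT, 115 to 146 in Irf5-KO, 10.6 to 11.1 in Lyn-KO and 9.62 to 14.7 in DKO. Pax5, the factor that defines B cells, was not well above background in either unstimulated genotype without Lyn. Of 9 neutrophil markers tested, 5 were lower and 0 higher in unstimulated DKO than in WT. The part of these cells in the differences was not tested.

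With CpG-B, 10 of 19 V-ATPase genes tested were called higher and 4 lower in DKO than in WT cells, 7 and 2 in normexp. The 4 lower include Atp6v1g2, which passed the filter only through the WT arrays with CpG-B. Irf5-KO and Lyn-KO cells had fewer calls among the V-ATPase genes. In the same comparison of DKO with WT, 0 and 7 of 9 B-cell markers were higher and lower (median -1.71), 1 and 7 of 9 neutrophil markers (median -1.21) and 6 and 2 of 10 plasmacytoid dendritic cell markers, whose summed level was 1000 to 1100 in DKO and 726 to 781 in WT. Their part in the result was not tested. Of the 32 genes, 17 higher (24.9% of all features) and 5 lower (19.9%) were called in DKO against WT, where 44.8% of all features were called in either direction. Irf5-KO against WT gave 9 higher (14.4% of all features) and 4 lower (11.1%), with 25.5% in either direction, and Lyn-KO against WT 9 higher (13.9% of all features) and 3 lower (11.2%), with 25.2%. These comparisons share the WT arrays. V-ATPase genes made up 10 and 4 of the higher and lower calls in DKO, 3 and 2 in Irf5-KO and 5 and 1 in Lyn-KO, and cathepsins 7 and 1, 6 and 2 and 4 and 2. The median log2 difference of the 32 genes was 0.30 in DKO, 0.09 in Irf5-KO and 0.06 in Lyn-KO, against 0.06, 0.02 and 0.05 over all features. Of V-ATPase genes 7 and 2 were higher and lower in DKO than in WT in normexp, and 3 and 1 in Lyn-KO under quantile normalisation. DKO against Irf5-KO gave 13 higher (18.1% of all features) and 1 lower (14.9%), with 33.0% in either direction. DKO against Lyn-KO gave 11 higher (16.8% of all features) and 3 lower (14.7%), with 31.5% in either direction. Leaving out each array in turn, 18 of the calls held in DKO against WT, 10 in Irf5-KO against WT, 6 in Lyn-KO against WT, 10 in DKO against Irf5-KO and 13 in DKO against Lyn-KO. Without Lyn-KO CpG-B array 3, and in a fit of the compared groups alone, 7 genes in place of 12 were called in Lyn-KO against WT.

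In the test of the difference of responses, 3 higher (7.48% of all features) and 2 lower (5.16%) of the 32 genes differed from WT in Irf5-KO, where 12.6% of all features did in either direction. Lyn-KO gave 2 higher (6.05% of all features) and 2 lower (5.02%), with 11.1% in either direction, and DKO 8 higher (17.3% of all features) and 3 lower (13.2%), with 30.5%. On leaving out each array, 4, 3 and 8 of these calls held. With the slide as a block the Lyn-KO count was 7 in place of 4, and without the filter on dim probes 2.

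**Figure D5:**
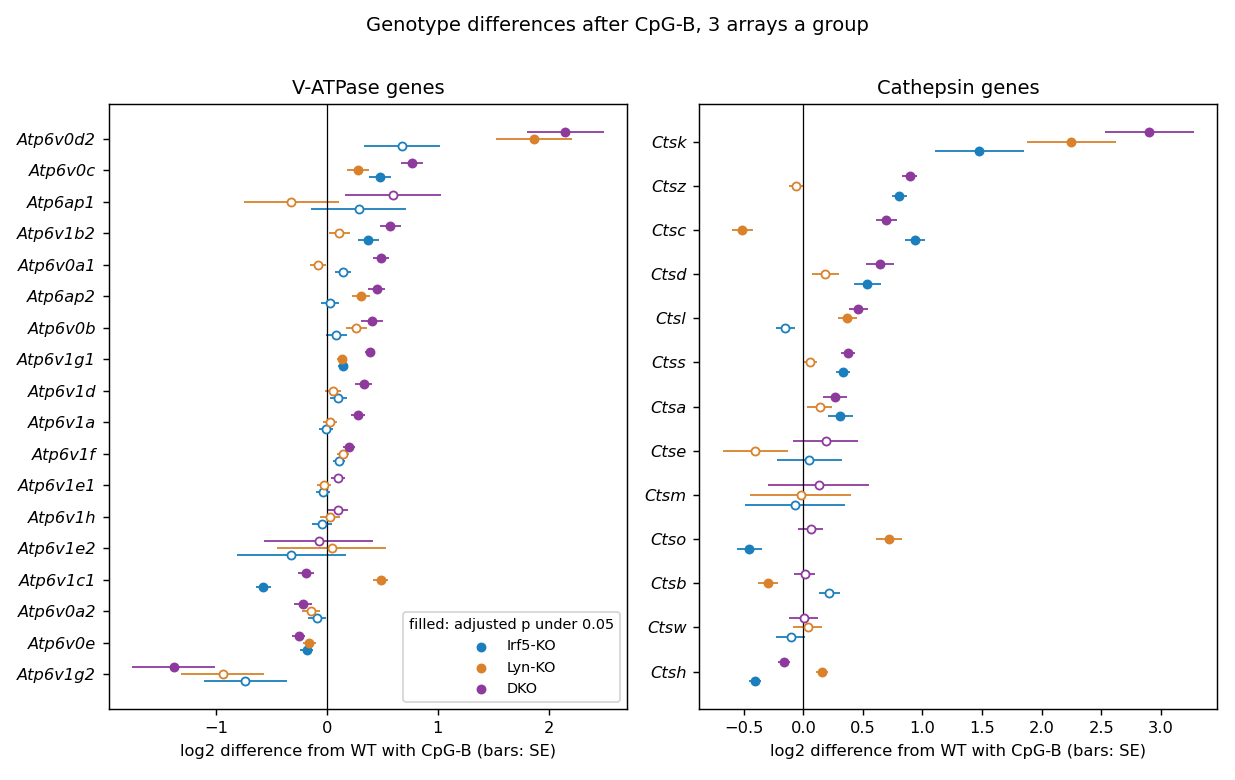
Log2 difference from WT with CpG-B for Irf5-KO, Lyn-KO and DKO, 1 point per gene and genotype with bars of 1 standard error (limma), filled where the adjusted p is under 0.05; Atp6v0d1 is left out. Ctsk lies to the right (1.48, 2.25 and 2.90), and Atp6v1c1 lies left of 0 in Irf5-KO (-0.58) and right of it in Lyn-KO (0.48).

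The other genes of the pathway were read from lists written by hand, and no list was tested as a set. Of all features, 31.2% and 37.2% were called higher and lower with CpG-B in WT and 31.6% and 35.2% in Irf5-KO. The shares were 32.8% and 36.1% in Lyn-KO and 34.6% and 35.9% in DKO. In DKO against WT with CpG-B they were 24.9% and 19.9%. Of 9 tested partners and assembly factors of the pump, 2 and 4 rose and fell in WT with CpG-B (in order WT, Irf5-KO, Lyn-KO and DKO: 2 and 4, 2 and 4, 3 and 4, 2 and 5), and 4 and 1 were higher and lower in DKO than in WT with CpG-B. Ncoa7, a pump-binding protein induced by interferon, rose by 2.44 ± 0.11 (adjusted p = 2.76e-13) in WT and 4.18 ± 0.11 (adjusted p = 1.3e-16) in DKO and differed between them with CpG-B by 1.09 ± 0.11 (adjusted p = 1.77e-07). Rogdi, a protein of a complex that assembles the pump, changed by -2.17 ± 0.11 (adjusted p = 2.09e-12) and Oxr1, which also binds the pump, by -1.04 ± 0.07 (adjusted p = 2.95e-10) in WT. Tcirg1, the a subunit of osteoclast and immune cell lysosomes, was higher in unstimulated DKO than WT by 0.33 ± 0.09 (adjusted p = 0.0258).

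Of the 4 MiT/TFE factors, which drive lysosomal genes, the counts in the same order were 0 and 2, 2 and 2, 0 and 2, 2 and 0, and 4 and 0 were higher and lower in DKO than in WT with CpG-B. Tfeb changed by -1.35 ± 0.08 (adjusted p = 1.02e-11) in WT, -1.08 ± 0.08 (adjusted p = 3e-10) in Irf5-KO, -0.64 ± 0.08 (adjusted p = 5.18e-07) in Lyn-KO and 0.03 ± 0.08 (adjusted p = 0.768) in DKO, and with CpG-B differed between DKO and WT by 1.23 ± 0.08 (adjusted p = 3.12e-10). Mitf differed there by 1.65 ± 0.13 (adjusted p = 4.37e-09) and Tfec by 1.18 ± 0.43 (adjusted p = 0.0309). Of 5 tested cathepsin inhibitors the counts were 4 and 1, 4 and 1, 1 and 1, 2 and 0, and in DKO against WT with CpG-B Cstb, an inhibitor of cytosolic cathepsins, differed by 1.07 ± 0.05 (adjusted p = 1.51e-11), Cst7 by 0.57 ± 0.10 (adjusted p = 0.000124) and the secreted Cst3 by 0.54 ± 0.10 (adjusted p = 0.000167).

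Of 39 tested hydrolases and activators the counts were 5 and 27, 6 and 27, 5 and 25, 6 and 27, with medians of -0.97, -1.01, -1.30, -0.93. Over all features, 31.2% to 34.6% were higher and 35.2% to 37.2% lower in these responses. In WT the thioesterase Ppt1 changed by -2.85 ± 0.08 (adjusted p = 3.38e-16), the glycosidases Man2b1 by -2.46 ± 0.06 (adjusted p = 2.95e-17) and Gusb by -2.03 ± 0.07 (adjusted p = 4.18e-15), while the protease Lgmn changed by 1.33 ± 0.06 (adjusted p = 1.09e-13) and the sialidase Neu1 by 1.17 ± 0.07 (adjusted p = 3.4e-11). Of 32 tested lysosomal membrane proteins the counts were 15 and 11, 15 and 10, 14 and 14, 13 and 10, with medians of 0.21, 0.20, -0.13, 0.07. In WT Lamp2 changed by 2.01 ± 0.09 (adjusted p = 1.32e-13), Cln3 by 1.91 ± 0.06 (adjusted p = 8.9e-16) and the channel Tpcn1 by -3.64 ± 0.16 (adjusted p = 1.49e-13).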

How the data were processed

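Total RNA of 24 samples was measured on 1-colour Agilent arrays. The deposited scanner files hold processed intensity values made, per the file headers, by Feature Extraction 10.7.3.1, and the authors deposited a series matrix of log2 values. Controls and outlier spots (4351 spot values) were left out. Spots of 1 probe were averaged, and levels were log2 of the processed intensity minus the 75th percentile of the array. Differences from the first array in the series matrix were within 0.0238 of those computed here for 95% of values (19943 probes).

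A probe was kept (26640 were) if the 3 arrays of some group had it well above background. The probe with the highest mean stood for a gene, giving 20209 features, 12648 of them named through RefSeq accessions (GRCm38.p6). All 8 groups were fitted in limma 3.58.1 (R 4.3.3) with 17 contrasts, and p-values were adjusted by Benjamini-Hochberg over all features. The number of arrays, 3 per group, limits the precision; the median residual SD was 0.134.

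Array values are given for genes called with at least a 2-fold change in a CpG-B response or called in a genotype comparison or response difference, and for the highest of each role. Other pathway genes are named only if called at 2-fold or more in the WT response or in a genotype comparison. The genes and lists were chosen with earlier results of these data known. Replicate numbers match slides, per the file headers, with 1 array of every group on each of 3 slides. Deviations of same-numbered arrays correlated at -0.084 to 0.293 (median 0.055, 84 pairs), and the fit without a block was the main one.

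The alternatives were quantile normalisation, normexp (offset 50), other filters on dim probes, the slide as a block, only the compared groups, the series matrix, every probe on its own and leaving out each array. Leaving out 3 pairs of arrays was chosen after seeing the data. The fit was also run on simulated data with independent noise and no slide effect, so that run cannot test the choice to leave out the block.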

Additional observations from a re-analysis of the deposited data

Results flagged for a closer look

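These genes had a CpG-B response that differed from that of WT by the test of the difference itself (limma, adjusted p under 0.05 over all features). All 3 comparisons use the WT arrays. On leaving out each array in turn, 4 of 5 calls held in Irf5-KO, 3 of 4 in Lyn-KO and 8 of 11 in DKO. Those lost were Atp6v1g1 in Irf5-KO, Atp6v0e in Lyn-KO, and Atp6v1f, Atp6v1g2 and Ctsh in DKO. Atp6v1g2 had also passed the filter only through WT with CpG-B, a group of its comparison. Other settings ended further calls, as given above for each gene. In Irf5-KO the log2 differences were -0.57 for Atp6v1c1, 0.19 for Atp6v1g1, 0.92 for Ctsc, -0.42 for Ctsh and 0.67 for Ctsz. In Lyn-KO they were -0.26 for Atp6v0e, 0.48 for Atp6v1c1, -0.45 for Ctsb and 0.72 for Ctso. In DKO they were 0.41 for Atp6ap2, 0.57 for Atp6v0a1, 0.65 for Atp6v0c, -0.30 for Atp6v0e, 0.56 for Atp6v1b2, 0.21 for Atp6v1f, 0.25 for Atp6v1g1, -1.58 for Atp6v1g2, 0.71 for Ctsc, -0.20 for Ctsh and 0.70 for Ctsz.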

How the results depend on the processing

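Of 182 called results on single genes, 36 lost the call without 1 of the arrays compared. Directions turned under scaling for a few genes. Under quantile normalisation, the response of Atp6v0e in Irf5-KO was -0.22, that of Atp6v1g1 -0.075, -0.18 and -0.089 in Irf5-KO, Lyn-KO and DKO, and that of Atp6v1f in DKO -0.32. In normexp, Atp6v0e was -0.072 in WT and -0.31 in Irf5-KO, Ctsz -0.26 in WT, Atp6v1g1 -0.11, -0.25 and -0.18 in Irf5-KO, Lyn-KO and DKO, and Atp6v1f -0.45 in DKO, with -0.041 for its DKO response difference. Leaving out 1 array, the Atp6v1e2 response in Lyn-KO ran from -1.21 to 0.34, the latter without unstimulated array 1. The cause was not tested. The scalings moved the median of all features by at most 0.0928.

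Counts of called genes that moved by over 1.5 times were, for unstimulated Lyn-KO against WT (3), 1 in normexp and 1 without the Lyn-KO arrays numbered 3. Unstimulated DKO against WT (4) gave 2 with only the compared groups fitted. Unstimulated DKO against Irf5-KO (3) gave 1 without the filter on dim probes, with only the compared groups, and without the DKO arrays numbered 1. Lyn-KO against WT with CpG-B (12) gave 7 with only the compared groups and without the Lyn-KO arrays numbered 3. The Lyn-KO response difference (4) gave 2 without the filter and 2 without that pair. With the slide as a replicate block it gave 7. Over all 17 comparisons the block added 16 calls of the tested genes to 182 and ended none. In deviations from group means, among arrays of other groups, each of the 24 arrays correlated best with an array of its own number, and so of its own slide. The slide was not in the main fit.

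Leaving out each array gave 15 to 17 calls for the WT response, 19 to 20 for Irf5-KO, 18 to 21 for Lyn-KO and 18 to 20 for DKO. Without CpG-B it gave 2 to 4 for Lyn-KO against WT, 3 to 3 for DKO against WT, 1 to 3 for DKO against Irf5-KO and 0 for the others. With CpG-B it gave 11 to 12 for Irf5-KO, 7 to 10 for Lyn-KO and 19 to 21 for DKO against WT, 11 to 13 for DKO against Irf5-KO and 13 to 16 for DKO against Lyn-KO. The response differences gave 4 to 6, 3 to 4 and 8 to 11 in Irf5-KO, Lyn-KO and DKO. Genes near background (Atp6v1g2, Atp6v1e2, Ctsm, Atp6v0d2 in unstimulated WT, and Ctse with CpG-B) have wide errors or only rough bounds.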
